A study of Mus musculus with 24 samples.

Results

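OT cells were compared with untransfected cells of the same line in proliferation medium, which set 4 samples titled as proliferated OT (OT-p) against 4 titled as proliferated WT (WT-p), 8 of the 24 samples of the series. All were N1E-115, a mouse neuroblastoma line that serves as a model of neurons, grown in DMEM with 10% fetal calf serum. OT cells were transfected with a chimeric protein in which the C-terminus of transcobalamin is fused to oleosin and for which no cobalamin binding was detected, per the labels. WT-p cells carry no construct, so the comparison has no empty-vector or oleosin-only control among the samples described. The labels name neither the promoter of the construct nor how many clones OT stands for. They speak of biological replicates without saying whether these were separate cultures. The p-values rest on the spread within groups over all 24 samples of the series, and not on a spread between clones. A further line, TO, carries the N-terminal fusion, which binds cobalamin strongly. Each line was also grown in differentiation medium with 2.5% serum and 1.25% DMSO, and those samples (OT-d, WT-d) are used below to see which differences recur in the other medium.

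Transcobalamin, encoded by Tcn2, carries cobalamin (vitamin B12) in blood and delivers it to cells through the receptor CD320. Inside the cell cobalamin serves methionine synthase, which supplies the methyl donor S-adenosylmethionine, and methylmalonyl-CoA mutase in mitochondria. Oleosin is the plant protein that coats oil bodies and anchors in lipid. N1E-115 cells come from the sympathoadrenal lineage of the neural crest, and they make the enzymes of catecholamine synthesis.

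RNA was measured on Agilent 2-colour arrays that held 2 samples each, with 2 Cy5 and 2 Cy3 samples in each group. Levels are normalized log2 intensities, and a level says nothing about the level of another gene. Between 55.46% and 65.87% of the spots of these 8 samples were well above background. The defining markers of the line were present: 17 of 17 neuroblastoma and sympathoadrenal markers were well above background in all 8 samples. Of the markers of blood, immune and endothelial cells 4 of 19 were above background in all 8, and Ptprc, Itgam and Cdh5 in none. Their summed signal was 3202 to 3900 in WT-p and 2506 to 2813 in OT-p. Of glial and Schwann cell markers 10 of 20 were above background in all 8 and Olig1, Mog and Fabp7 in none, with sums of 30830 to 35550 in WT-p and 31970 to 35510 in OT-p. For fibroblasts and smooth muscle 8 of 18 were above background in all 8, Fap, Postn and Twist1 were in none, and the sums were 20470 to 22290 in WT-p and 17330 to 17400 in OT-p. In bulk RNA fewer cells of a type and less RNA per cell cannot be told apart, and the part of these markers in the results was not tested.

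The untransfected samples were not alike. On the first principal component of the 8 samples, with 64.4% of the variance, OT-p replicates 1 to 4 lay at 24.5, 24.6, 24.3 and 22.8. WT-p replicates 1 and 3 lay at -9.3 and -13.8, and WT-p replicates 2 and 4 at -39.8 and -33.2. WT-p 1 and 3, whose descriptions carry the numbers 1b and 1, are thus nearer to OT-p than the other pair is. OT-p replicates 2 and 4 carry the numbers 14 and 14b. Pearson correlations across genes were 0.9953 to 0.9982 between OT-p samples and 0.9872 to 0.9954 between WT-p samples. The pairs that share a number had 0.9982 in OT-p and 0.9942 in WT-p. Whether such a pair is 1 RNA measured in both dyes is not given, and the fit counts its samples as separate. Below, a value without WT-p replicates 1 and 3 is added where leaving them out moved the fold of a called gene by over 1.5 times.

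The fit tested 16240 genes. At an adjusted p under 0.05 (limma, Benjamini-Hochberg) 44.7% of them differed, with 3310 genes higher in OT-p (20.4%) and 3952 lower (24.3%), and the median difference was -0.018 on the log2 scale. That order depended on the scaling: on the scanner's processed signals 3705 genes were higher and 3531 lower, which is 51.2% higher among the calls, and the median was 0.017. Large differences were mostly lower levels: 58 genes (0.357%) were over 2-fold higher and 299 (1.84%) over 2-fold lower. After loess, Aquantile gives the arrays the same distribution of average intensity. Without that step the calls were 2027 higher and 4459 lower, and the share of higher among all calls was 31.3% in place of 45.6%. Without WT-p replicates 1 and 3, the calls were 3572 higher (22%) and 4126 lower (25.4%), or 47.4% in all, with 144 (0.887%) and 604 (3.72%) over 2-fold. In 33.8% of genes every OT-p sample lay on the same side of every WT-p sample. Of the called genes 2191 did not reach that separation.

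Each of the 3 slides held samples of both groups, so the difference could be read within each. Here and below these within-slide differences carry no dye term. On slide 1 the WT-p samples were in Cy3 and the only OT-p sample in Cy5. Slide 2 had a single sample of each group, with WT-p in Cy5 and OT-p in Cy3, so group and dye cannot be told apart on either slide. Slide 3 had a single WT-p sample. Across all genes the differences correlated between slides with Spearman's rho of 0.74 (slides 1 and 3), 0.61 (slides 1 and 2) and 0.71 (slides 2 and 3), where genes are not independent replicates. Of the called genes, which were called from these same slides, 97.6%, 93.8% and 95.2% had the same sign on each pair. With slide as a covariate 3281 genes were called higher and 4011 lower.

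A membrane glycoprotein, an actin-associated protein and a regulator of Rac were among the genes with the greatest rise. Gpm6b encodes a neuronal membrane glycoprotein of the proteolipid protein family, and the probe used lies on chromosome X at 161732904 to 161732963 (mm8 build). The gene has 3 probes, and the others, above background in no WT-p or OT-p sample, each differed by 0.07. On the probe used, levels were 6.88, 7.51, 7.01 and 7.18 in WT-p replicates 1 to 4 and 11.30, 11.22, 10.97 and 11.06 in OT-p. The groups were far apart in every sample, and the difference was 3.90 on the log2 scale (standard error 0.13), 14.9-fold, with an adjusted p of 5.54e-16. Pdlim3, an actin-associated PDZ-LIM protein, was at 10.03, 9.32, 10.38 and 9.55 in WT-p and at 12.43, 12.42, 12.32 and 12.47 in OT-p, a rise of 2.55 (adjusted p 1.74e-12). WT-p 1 and 3 were the higher untransfected samples for this gene, and without them the difference was 2.96. Arhgap25, a GTPase-activating protein for Rac, was at 7.92, 7.79, 7.99 and 8.01 against 9.80, 9.62, 9.80 and 9.74, a rise of 1.75 with little spread in either group (adjusted p 3.13e-13).

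Regulators of BMP signalling and of helix-loop-helix factors were among the genes that rose. Bambi, a decoy receptor that dampens TGF-beta and BMP signals, was at 11.80, 10.65, 11.88 and 11.02 in WT-p and at 13.28, 13.19, 13.20 and 13.23 in OT-p, a rise of 1.86 (adjusted p 6.47e-09). Id2, which blocks basic helix-loop-helix factors, was at 12.77, 11.50, 12.09 and 12.09 against 13.98, 13.83, 13.82 and 13.69, a rise of 1.62 (adjusted p 8.68e-08). Id3 rose by 0.89 (adjusted p 0.00601), and its adjusted p was 0.0534 without OT-p replicate 4 and 0.0702 without WT-p replicate 2. In the list of 31 tested BMP and TGF-beta genes, 8 were higher and 5 lower with a median of 0.10, so the list as a whole sat near the background of all genes.

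Other genes with the greatest rise are given by size. Galnt5, an enzyme that starts mucin-type O-glycosylation, rose by 1.91, and Flrt3, a leucine-rich repeat adhesion protein, by 1.65. Chst8, a sulfotransferase, rose by 1.56, and Col6a4, a collagen VI chain, by 1.5, although a second and dimmer probe of Col6a4 differed by -0.20. Samsn1, an adaptor with a SAM and an SH3 domain, rose by 1.48, over 3 WT-p values. Nfatc1, a calcium-regulated transcription factor, rose by 1.42, while its second probe differed by 0.22. The transferrin receptor gene Tfrc rose by 1.40 and the tyrosine kinase gene Frk by 1.40. The adjusted p of these 8 genes lay between 1.49e-12 for Col6a4 and 0.000464 for Galnt5, and every OT-p sample was above every WT-p sample in each.

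Izumo3, a relative of the sperm protein Izumo1, was well above background in 4 of 4 OT-p samples and in none of WT-p. Its OT-p levels were 9.40, 9.31, 9.46 and 9.28, and its measured WT-p levels were 5.74, 5.82, 6.12 and 6.04. It was at least 9.64-fold higher in OT-p, where the bound sets the bright group's mean against the lowest signal well above background in each dim sample. Stard8, Osbpl3, Zan and 4930511A02Rik were likewise above background in OT-p alone, with bounds of 2.91, 2.56, 2.25 and 1.83-fold.

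**Figure D1:**
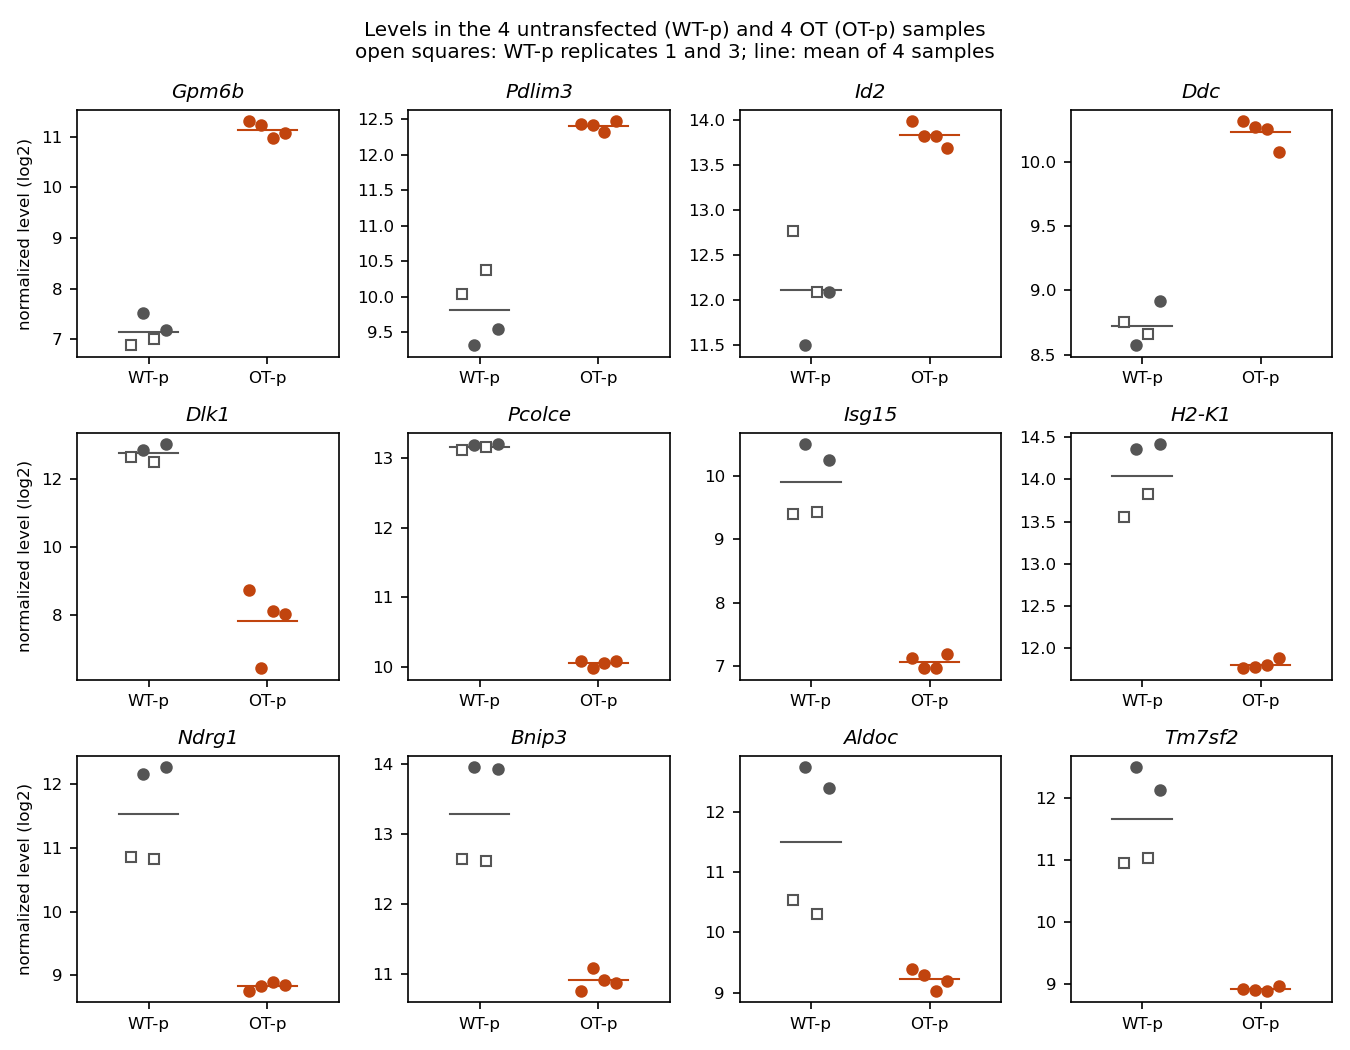
Normalized log2 levels (vertical axes, a separate scale for each gene) of 12 genes in the 4 WT-p and the 4 OT-p samples. Points are samples, lines are means of 4, and open squares are WT-p replicates 1 and 3; these squares sit toward OT-p for Ndrg1, Bnip3, Aldoc and Tm7sf2 but beside the other WT-p samples for Pcolce, Ddc and Gpm6b.

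The greatest fall was that of Dlk1, an imprinted gene for a membrane protein related to Notch ligands. Its levels were 12.63, 12.83, 12.49 and 13.00 in WT-p and 8.72, 6.43, 8.11 and 8.03 in OT-p. OT-p replicate 2 was the lowest, and all 4 OT-p samples were well above background. The difference was -4.62 (standard error 0.37), which is 24.6-fold, with an adjusted p of 1.51e-09. A dimmer probe of the gene differed by -3.53. The TO line showed -5.08 against the same WT-p samples, so this fall was seen with either construct, although these comparisons share their controls.

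Pcolce, which enhances the trimming of procollagens by C-proteinases, fell with almost no spread. It was at 13.12, 13.18, 13.17 and 13.20 in WT-p and at 10.08, 9.98, 10.06 and 10.09 in OT-p. The groups were separated by many times their own range, the difference was -3.13 (standard error 0.06, 8.73-fold), and the adjusted p was 2.44e-21. Kcnip4, a potassium channel interacting protein, was above background in 4 of 4 WT-p samples, at 9.42, 9.80, 8.90 and 9.13, and in none of OT-p, which makes it at least 8.62-fold lower. In TO-p it differed from WT-p by -3.24. Arhgdib, Ifit1, Msl3l2 and Foxc1 were lower by at least 3.40, 2.93, 2.64 and 1.89-fold on the same bound.

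For several of the greatest falls, WT-p replicates 1 and 3 lay between the other untransfected samples and OT-p. St3gal1, a sialyltransferase, was at 9.90, 11.46, 9.94 and 11.66 in WT-p and at 7.64, 7.11, 7.30 and 7.20 in OT-p, a difference of -3.42 (adjusted p 3.65e-09) that was -4.26 without replicates 1 and 3. Selenbp1, a selenium-binding protein, was at 11.19, 12.95, 11.26 and 13.10 against 9.61, 9.55, 9.45 and 9.53, a difference of -2.50, and of -3.43 (10.8-fold in place of 5.64-fold) without replicates 1 and 3. Its near-identical neighbour Selenbp2 differed by -2.42, and by -3.34 without them, and probes of these genes may read each other. Over the 293 genes more than 2-fold lower with complete values, the mean of WT-p 1 and 3 lay between that of WT-p 2 and 4 and that of OT-p in 91.8%, against 75.5% of all genes called lower and 50.7% of all genes.

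Other large falls showed less of that split. Akr1b7, an aldo-keto reductase, differed by -2.48, Cryba2, a beta-crystallin, by -2.41, and Capn6, a calpain without protease activity, by -2.38. Slc22a18, an imprinted membrane transporter, differed by -2.34 and Nnmt, which spends S-adenosylmethionine to methylate nicotinamide, by -2.28. A dimmer second probe of Slc22a18, well above background in all 8 samples, differed by -0.36. Nnmt stood at 9.50, 9.82, 9.54 and 9.78 in WT-p and at 7.24, 7.34, 7.50 and 7.24 in OT-p. The adjusted p of these 5 genes lay between 5.04e-15 and 2.20e-12.

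Genes of glycolysis and of the response to low oxygen were lower in OT-p. Of 42 tested members 30 were lower and 2 higher, with a median difference of -0.535, against 24.3% lower, 20.4% higher and a median of -0.018 over all genes. Ndrg1, a gene induced by hypoxia, was at 10.85, 12.16, 10.83 and 12.27 in WT-p and at 8.75, 8.83, 8.90 and 8.84 in OT-p, a difference of -2.64 (adjusted p 4.41e-08). Bnip3, a mitophagy receptor, was at 12.64, 13.95, 12.61 and 13.93 against 10.76, 11.09, 10.92 and 10.87, a difference of -2.28 (adjusted p 3.29e-07). Both genes show the same 2-level pattern in WT-p, with replicates 1 and 3 low, and without those the differences were -3.36 and -3.01. Aldoc, the brain aldolase, differed by -2.30 (adjusted p 3.67e-06), and by -3.34 without replicates 1 and 3. Adm, the peptide hormone adrenomedullin, differed by -1.69 (adjusted p 2.09e-05), and by -2.47 without them. A dimmer Aldoc probe, well above background in 6 of the 8 samples, differed by -0.36. The glucose transporter gene Slc2a1 was at 12.62, 13.54, 12.42 and 13.50 against 11.70, 11.87, 11.46 and 11.54, and the oxygen sensor gene Egln3 differed by -1.29.

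The median of the list was -0.213, 0.256, -0.233 and 0.281 in WT-p replicates 1 to 4, relative to the WT-p mean, and -0.528, -0.460, -0.580 and -0.715 in OT-p. OT-p was thus below all WT-p samples, and WT-p 1 and 3 lay in between. Without these 2 samples 34 members were lower and 1 higher, with a median of -0.741. In 30 of the 32 called members (93.8%) WT-p 1 and 3 were intermediate, against 75.5% of all genes called lower. This was not particular to the list. The share was 91.8% among genes more than 2-fold lower. It was 94.4% of called cholesterol and fatty acid synthesis genes and 93.3% of called MHC class I and antigen processing genes.

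Promoters of this list were read because its members moved together, and 3 are shown as the carriers of the motif that the hypoxia-inducible factors bind. They cover 250 bases up to the annotated start in RefSeq (build GRCm38.p6), with the hypoxia response core ACGTG, searched on both strands, in capitals. Bnip3, Slc2a1 and Egln3 were chosen for these matches after their values were seen. Their positions are chr7:138909507-138909756 (minus strand), chr4:119108495-119108744 (plus strand) and chr12:54203875-54204124 (minus strand).
Bnip3: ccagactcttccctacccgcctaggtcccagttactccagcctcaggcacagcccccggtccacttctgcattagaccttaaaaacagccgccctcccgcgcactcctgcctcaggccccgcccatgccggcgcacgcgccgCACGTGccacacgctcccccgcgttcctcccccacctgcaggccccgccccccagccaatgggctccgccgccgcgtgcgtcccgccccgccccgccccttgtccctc
Slc2a1: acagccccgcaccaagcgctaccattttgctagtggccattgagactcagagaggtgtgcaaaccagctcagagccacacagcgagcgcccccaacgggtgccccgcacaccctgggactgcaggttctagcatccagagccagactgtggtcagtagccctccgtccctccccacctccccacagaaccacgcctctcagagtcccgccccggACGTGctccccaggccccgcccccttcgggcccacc
Egln3: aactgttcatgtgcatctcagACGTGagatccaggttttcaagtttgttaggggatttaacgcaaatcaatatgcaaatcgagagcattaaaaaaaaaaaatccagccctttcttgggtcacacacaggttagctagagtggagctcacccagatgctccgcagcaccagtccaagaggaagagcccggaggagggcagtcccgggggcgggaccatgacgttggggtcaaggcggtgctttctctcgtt
The Bnip3 match spells CACGTG, which is also an E-box. There the core is met on both strands in overlapping letters, 107 and 108 bases before the start, in Slc2a1 36 bases before it, and in Egln3 229 bases before it. The core was present in 19 of 39 promoters of tested members (48.7%), and in 14 of 27 promoters of members that were lower (51.9%). The list was made of genes of this response, so a share above that of other promoters is not a result of these data. It was found in 16.6% of all 27025 promoters and in 21.0% of those of tested genes. Promoters of all genes called lower held it in 20.5%, close to that share. Aldoc and Adm had no match in this window, and Ndrg1 was not in the table.

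Interferon-induced and MHC class I genes were lower too. Isg15, a ubiquitin-like modifier induced by interferon, was at 9.40, 10.50, 9.44 and 10.26 in WT-p and at 7.12, 6.96, 6.96 and 7.19 in OT-p, a difference of -2.84 (adjusted p 1.27e-10). Ifi27, an interferon-induced mitochondrial protein, differed by -1.32, and Rsad2 (viperin), an antiviral enzyme, by -0.91. The adjusted p of Rsad2 was 0.000529, but 0.0814 in a fit of the 8 samples alone, and its difference was -0.52 without WT-p replicate 2. Of 34 tested interferon and antiviral genes 15 were lower and 3 higher, with a median of -0.182, and 9 were lower without WT-p replicate 2. Of 18 MHC class I and antigen processing genes 13 were lower and 2 higher, with a median of -0.512.

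H2-K1, a classical class I heavy chain, was at 13.55, 14.35, 13.82 and 14.41 in WT-p and at 11.76, 11.78, 11.80 and 11.88 in OT-p, a difference of -2.25 (adjusted p 1.99e-12). H2-M3, a non-classical heavy chain, differed by -1.52 and H2-D1 by -1.42. The class I genes are near-identical in sequence, so their probes may read each other and these members are not independent. The list's sample medians were -0.128, 0.159, -0.144 and 0.141 in WT-p and -0.645, -0.471, -0.543 and -0.557 in OT-p.

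For the interferon genes, 3 promoters are shown because their members were lower and carry GAAA, any 2 bases and GAAA again, part of the element bound by interferon-regulated factors. They are from the same table and build and were searched on both strands, at chr4:156200819-156201068 (Isg15, minus), chr19:34640639-34640888 (Ifit1, plus) and chr12:26456453-26456702 (Rsad2, minus), with matches in capitals.
Isg15: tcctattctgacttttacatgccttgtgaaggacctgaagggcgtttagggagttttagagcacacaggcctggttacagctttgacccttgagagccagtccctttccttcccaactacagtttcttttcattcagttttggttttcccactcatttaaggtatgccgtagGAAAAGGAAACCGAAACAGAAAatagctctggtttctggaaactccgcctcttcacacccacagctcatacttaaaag
Ifit1: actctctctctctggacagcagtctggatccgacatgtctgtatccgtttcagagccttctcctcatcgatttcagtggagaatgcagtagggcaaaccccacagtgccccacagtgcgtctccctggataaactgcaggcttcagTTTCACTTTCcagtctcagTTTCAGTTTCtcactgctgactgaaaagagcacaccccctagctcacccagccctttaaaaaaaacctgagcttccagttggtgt
Rsad2: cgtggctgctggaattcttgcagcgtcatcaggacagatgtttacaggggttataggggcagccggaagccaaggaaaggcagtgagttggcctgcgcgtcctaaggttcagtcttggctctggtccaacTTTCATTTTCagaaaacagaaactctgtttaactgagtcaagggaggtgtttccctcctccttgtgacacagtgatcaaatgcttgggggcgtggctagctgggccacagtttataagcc
Isg15 has 3 overlapping matches, 66 to 78 bases before the start, Ifit1 has matches 85 and 104 bases before it, and Rsad2 has 1 at 120 bases. Of 26 promoters of tested interferon genes 10 held the repeat (38.5%), and of 12 that were lower 7 did (58.3%), against 3.04% of all promoters and 2.57% of those of tested genes. This list too was made of genes of the response, so a share above that of other promoters is not a result of these data. The array file places its Isg15 probe on chromosome 17, while RefSeq has the gene on chromosome 4, so the probe's identity rests on its annotation. Chromosomes agreed for 99.9% of 13746 genes.

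Genes of the integrated stress response, in which ATF4 raises amino acid supply and stress genes, were lower in 18 of 30 and higher in 1, with a median of -0.353. Trib3, a pseudokinase of that response, was at 14.11, 14.53, 14.29 and 14.80 in WT-p and at 13.33, 13.36, 13.45 and 13.42 in OT-p, a difference of -1.04 (adjusted p 3.16e-08). Cebpb, a leucine zipper factor, differed by -0.99, and Ddit3 (CHOP) by -0.70 (adjusted p 1.22e-05). This list showed little of the WT-p split: its sample medians were -0.062, -0.002, 0.017 and 0.054 in WT-p against -0.462, -0.399, -0.346 and -0.302 in OT-p. Hspa5, the main ER chaperone, was higher by 0.26 (adjusted p 0.00362, but 0.111 with loess alone and 0.0515 without the 6 samples whose descriptions carry the letter b), and of 36 tested unfolded protein response and ER chaperone genes 4 were higher and 11 lower (median -0.024).

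Enzymes of cholesterol and fatty acid synthesis were lower in 21 of 38 and higher in none (median -0.268). Tm7sf2, a sterol reductase of the cholesterol pathway, was at 10.95, 12.50, 11.03 and 12.14 in WT-p and at 8.91, 8.89, 8.88 and 8.96 in OT-p, a difference of -2.74 (adjusted p 2.45e-10), and of -3.39 without WT-p 1 and 3. Acss2, which makes acetyl-CoA from acetate, differed by -1.16, and Hmgcs1, an early enzyme of the pathway, by -0.82 over 3 WT-p values. The adjusted p of Hmgcs1 was 6.42e-05 on its brightest probe and 0.584 on the mean of its probes. Sample medians of the list were -0.149, 0.143, -0.080 and 0.089 in WT-p and -0.230, -0.190, -0.309 and -0.326 in OT-p, so WT-p replicate 1 lay just above OT-p replicate 2.

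Genes of the extracellular matrix and imprinted genes were also lower more often than higher. Of 44 collagen and extracellular matrix genes 23 were lower and 4 higher (median -0.244), beside the lower summed fibroblast markers given above. Those markers include collagen genes themselves, so the falls need not be separate observations. Nid1, which links laminin and collagen IV, differed by -1.24, Tgfbi, a secreted adhesion protein, by -1.10, and Agrn, the proteoglycan agrin, by -1.20 over 3 values a group. Agrn had an adjusted p of 2.40e-07 on its brightest probe and 0.422 on the mean of its probes. Of 24 imprinted genes 13 were lower and 2 higher (median -0.299), among them Dlk1, Slc22a18 and Phlda2, a brake on placental growth (-1.39). Of 16 CDK inhibitors and D-type cyclins 7 were lower and 1 higher (median -0.282). The lower members included inhibitors and the pocket proteins Rb1 and Rbl1. The D-type cyclins Ccnd1 and Ccnd3 differed by 0.10 and 0.12 and were not called, though Ccnd1 was without WT-p 1 and 3 (0.31). Cdkn1a, the p21 inhibitor, differed by -0.99 (adjusted p 2.32e-07) and the cyclin gene Ccng2 by -1.70 (adjusted p 2.17e-07).

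**Figure D2:**
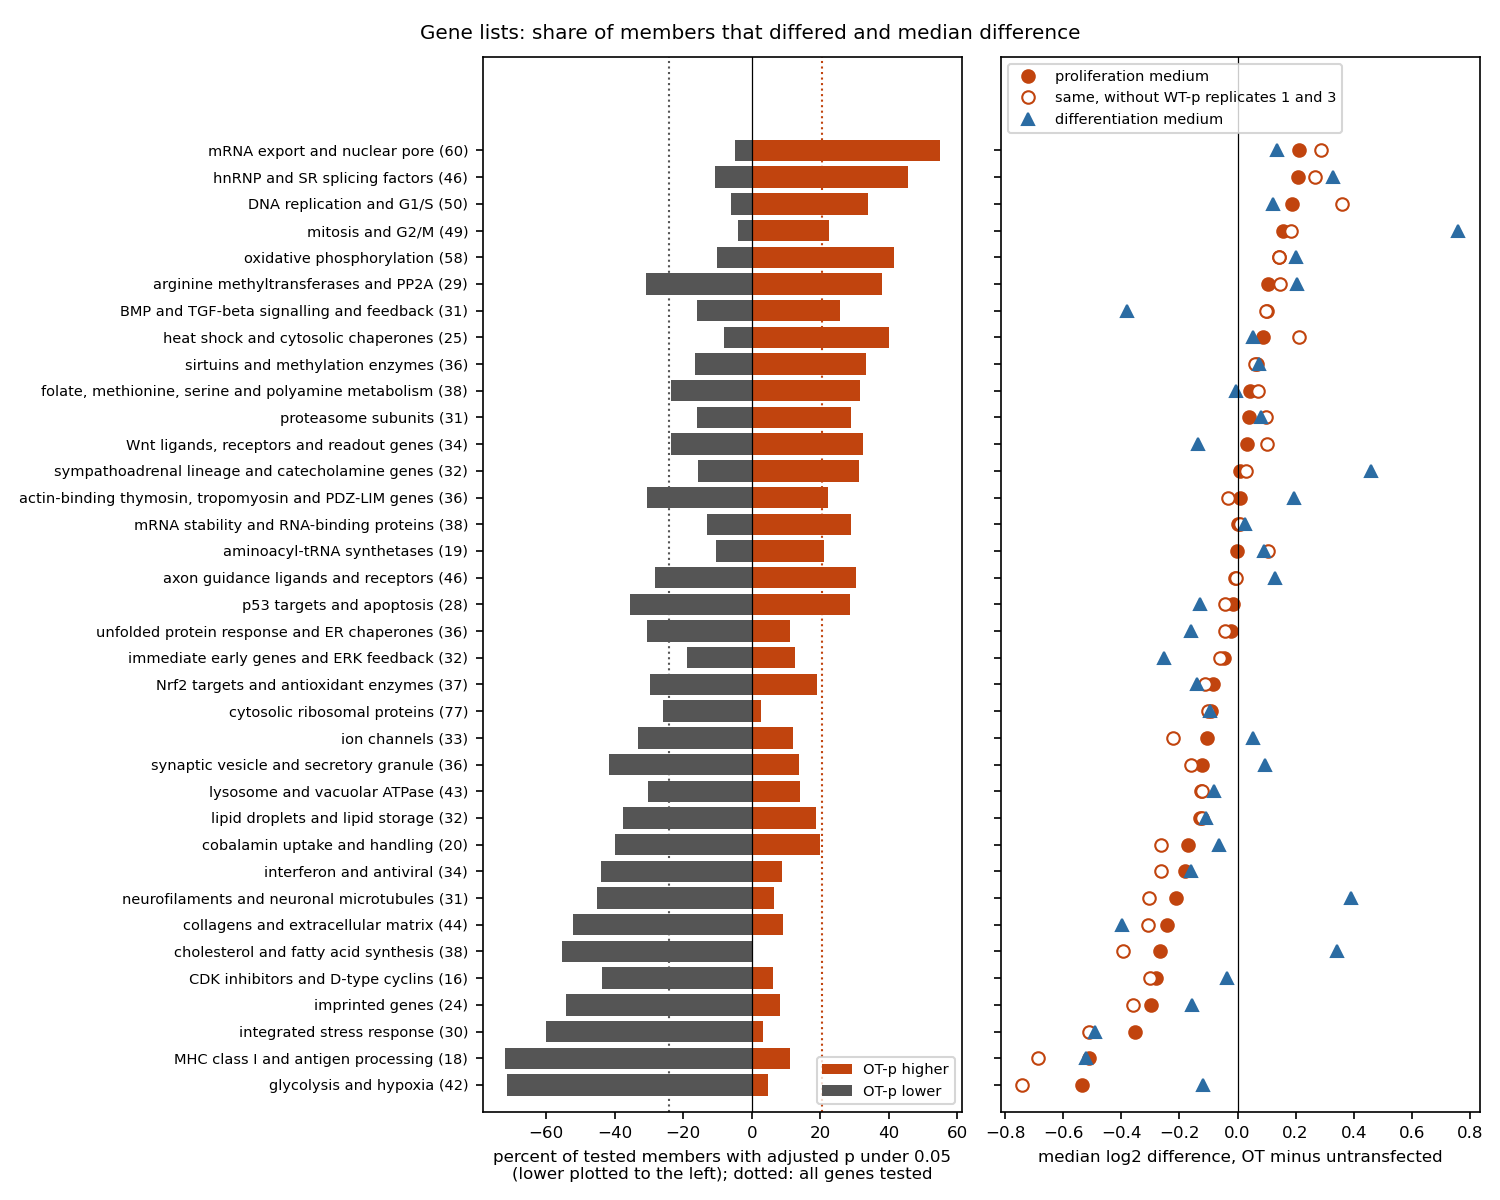
Left, the percent of tested members of each gene list with at least 15 tested genes, other cell types' markers left out (number tested in brackets), that were higher or lower in OT-p, with dotted lines for all genes tested. Right, the median log2 difference of OT minus untransfected cells in proliferation medium, the same without WT-p replicates 1 and 3, and in differentiation medium; glycolysis and hypoxia stands lowest at -0.535 and mRNA export highest at 0.212 among these lists in proliferation medium.

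Several lists of RNA handling and cell division held more higher than lower members. Among the 60 genes for mRNA export and the nuclear pore, 33 were higher and 3 lower (median 0.212), by small amounts. Without WT-p replicate 2, when 2367 genes in all were called higher, 19 of them were, and without OT-p replicate 4 21. With loess alone, where the median of all genes was -0.062, it was 13. Ddx39a, an export helicase, was at 13.46, 12.76, 13.55 and 12.99 in WT-p and at 13.89, 13.90, 13.89 and 13.91 in OT-p, a rise of 0.69 (adjusted p 7.94e-05). Nup214, a pore protein of the cytoplasmic face, rose by 0.52, although a dimmer second probe differed by -0.11. Anp32a, a nuclear phosphoprotein, went the other way at -0.73, with -0.23 on a dimmer second probe. Of 46 hnRNP and SR splicing factors 21 were higher and 5 lower (median 0.209), and 11 were higher without WT-p replicate 2 and 13 with loess alone. The paraspeckle proteins Pspc1 and Sfpq rose by 0.76 and 0.63, and Hnrnpdl by 0.62. The adjusted p of Sfpq was 0.00661, and 0.0879 without WT-p replicate 2. Of 38 genes of mRNA stability and RNA-binding proteins 11 were higher and 5 lower, with a median of 0.002 that changed sign among the alternatives.

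Of 50 DNA replication and G1/S genes 17 were higher and 3 lower (median 0.186), and 11 were higher without OT-p replicate 4. Rpa2, a subunit of the single-strand DNA binding complex, was at 12.13, 11.31, 11.49 and 11.67 in WT-p and at 12.31, 12.36, 12.65 and 12.45 in OT-p, a rise of 0.72 (adjusted p 0.000599). Cdc6, which loads the replicative helicase, rose by 0.71 (adjusted p 0.00641, and 0.121 on the scanner's processed signals). WT-p 1 and 3 approached OT-p here as well: the sample medians were 0.130, -0.268, 0.211 and -0.057 in WT-p and 0.256, 0.230, 0.281 and 0.204 in OT-p, so WT-p replicate 3 lay inside the OT-p range. Without WT-p 1 and 3, 28 members were higher, 2 were lower, and the median was 0.359. Of 49 mitosis and G2/M genes 11 were higher and 2 lower (median 0.155), and 7 were higher without WT-p replicate 2. The share higher, 22.4%, was near the 20.4% of all genes, while 4.08% were lower, against 24.3% of all genes.

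Of 58 genes of oxidative phosphorylation 24 were higher and 6 lower (median 0.142). The number higher was 13 with loess alone and 14 in a fit of the 8 samples alone, without the 6 samples with the letter b, or without background outliers. Sdhd, an anchor subunit of succinate dehydrogenase, rose by 0.62 and Cycs, cytochrome c, by 0.57. The mitochondrially encoded genes that were tested, CYTB, ND4L and COX2, rose by 1.47, 1.26 and 1.19. The probe annotation places the COX2 probe on chromosome 1 and gives no position for CYTB and ND4L. That the COX2 probe reads the mitochondrial transcript therefore rests on its name. CYTB was at 15.34, 14.44, 14.86 and 13.37 in WT-p and at 16.10, 15.84, 16.13 and 16.08 in OT-p, with WT-p replicate 4 the lowest, and the difference was 2.06 without WT-p 1 and 3. This list of mitochondrial transcripts was added after the data were seen.

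**Figure D3:**
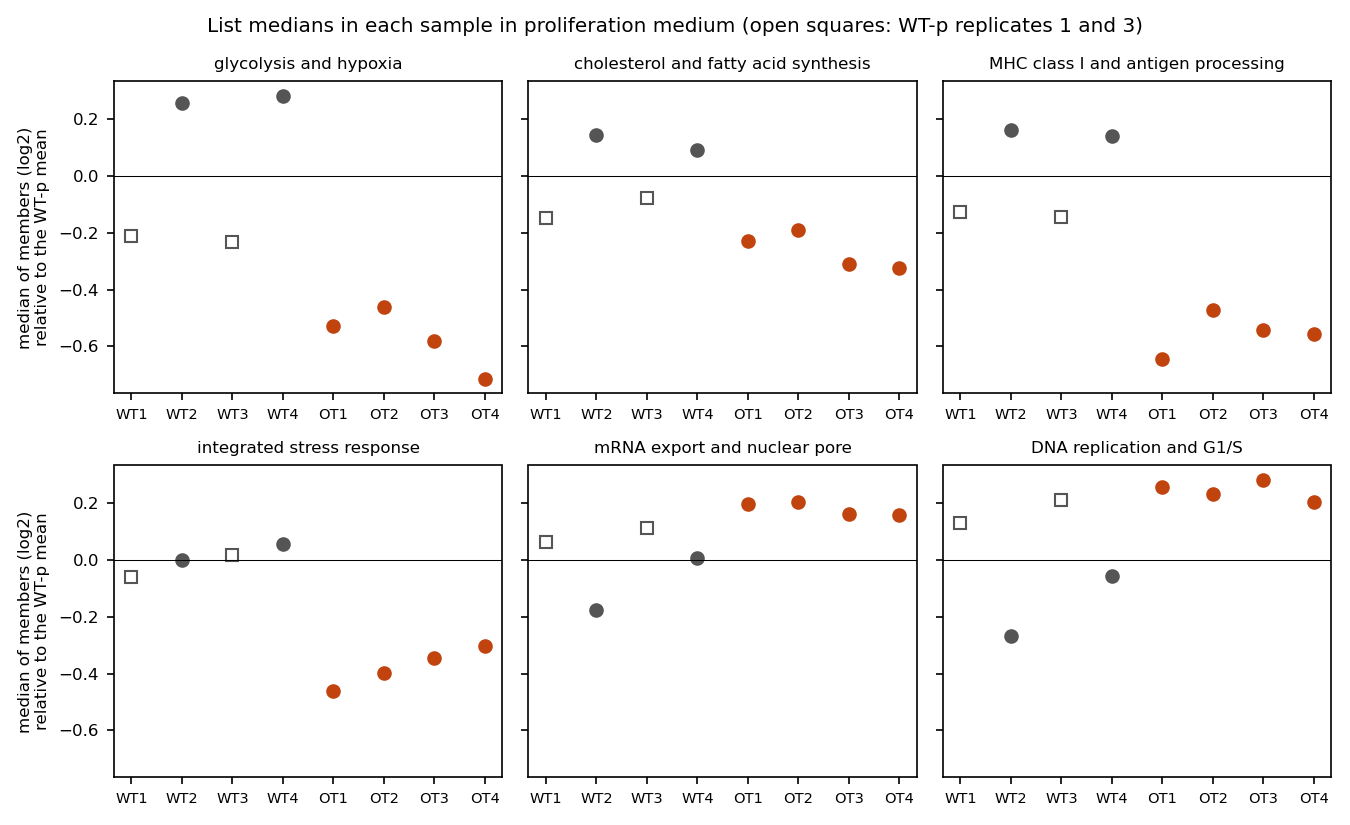
Median of the members of 6 gene lists in each sample, as log2 difference from the WT-p mean (vertical axis), for WT-p replicates 1 to 4 and OT-p replicates 1 to 4 (horizontal axis). Open squares are WT-p replicates 1 and 3, which lie between the other samples for glycolysis and hypoxia (-0.213 and -0.233) but beside WT-p 2 and 4 for the integrated stress response.

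Of 20 tested genes that handle cobalamin 8 were lower and 4 higher (median -0.170), by modest amounts. Without WT-p 1 and 3 it was 10 and 3 (median -0.263). Tcn2 itself, which the probe may or may not share with the construct, was at 7.74, 8.01, 7.75 and 8.16 in WT-p and at 7.55, 7.59, 7.68 and 7.50 in OT-p, a difference of -0.32 (adjusted p 0.00499, and 0.0537 without OT-p replicate 4). In TO-p it differed from WT-p by 1.08. Which part of Tcn2 the probe reads relative to either construct was not analysed here, so it is no check of the OT label. The receptor Cd320 differed by -0.13 (adjusted p 0.238), and the lysosomal exporters Lmbrd1 and Abcd4 fell by 0.38 and 0.57 (adjusted p 0.000328 and 3.79e-05). Lmbrd1 had an adjusted p of 0.07 on the mean of its probes. The cytosolic chaperones Mmachc and Mmadhc differed by 0.14 and -0.04 (adjusted p 0.306 and 0.731).

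Of the 2 cobalamin-dependent enzymes, methionine synthase (Mtr) was higher by 0.26 (adjusted p 0.0125), a call lost under 5 alternatives with adjusted p of 0.0532 to 0.121, and methylmalonyl-CoA mutase (Mmut) differed by -0.04 (adjusted p 0.639). A dimmer Mmut probe, well above background in all 8 samples, differed by -0.41, and another, above background in none, by -0.02. Mtrr, which reactivates methionine synthase, fell by 0.42 (adjusted p 0.00201), yet differed by 0.01 on slide 1 and lost its call without the samples with the letter b (0.13) and in a fit of the 8 samples alone (0.0554). Abcc1, a transporter that exports cobalamin, fell by 0.55 (adjusted p 3.63e-05).

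The title of the series concerns methylation and phosphorylation of HuR, the RNA-binding protein encoded by Elavl1. Elavl1 was at 12.00, 12.22, 12.02 and 12.05 in WT-p and at 12.05, 12.08, 11.93 and 11.94 in OT-p, a difference of -0.05 (adjusted p 0.615). The probe used was the brightest over all 24 samples, though not over these 8, and the 3 probes of the gene disagreed, with differences of group means of -0.07, -0.10 and 0.90, and which transcript forms they read was not analysed here. Among enzymes that modify proteins, Sirt1, a deacetylase, rose by 0.66 (adjusted p 2.05e-06), the arginine methyltransferases Prmt6 and Prmt5 by 0.75 and 0.55, and the PP2A subunits Ppp2r1b and Ppp2ca by 0.57 and 0.42. Among 29 arginine methyltransferases and PP2A subunits 11 were higher and 9 lower, and 7 were higher without WT-p replicate 2, so no direction held for the list. Among 36 sirtuins and methylation enzymes 12 were higher and 6 lower, an order that turned with loess alone. Mbd1, a methyl-CpG binding protein, rose by 0.64 and Sirt2 fell by 0.59. A dimmer Mbd1 probe, well above background in all 8 samples, differed by 0.03. Dimmer probes likewise above background differed by 0.12 and 0.76 for Prmt6, and by 0 and 0.43 for Ppp2r1b.

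Neuronal genes went both ways. Ddc, which makes dopamine from L-DOPA, was at 8.75, 8.57, 8.66 and 8.92 in WT-p and at 10.31, 10.27, 10.25 and 10.08 in OT-p, a rise of 1.51 (adjusted p 2.09e-11). Gata3, a factor of the sympathoadrenal lineage, rose by 1.29 and Dbh, which makes noradrenaline, by 0.67. Cyb561, the cytochrome that supplies electrons to secretory granules, fell by 1.24. Th, the first enzyme of catecholamine synthesis, differed by -0.17 (adjusted p 0.0722), and by -0.32 (adjusted p 0.00279) without WT-p 1 and 3. Of 32 sympathoadrenal and catecholamine genes 10 were higher and 5 lower, with a median of 0.007 that changed sign under 3 alternatives. Without WT-p 1 and 3, 12 of them were higher and 11 lower. Of 31 neurofilament and neuronal microtubule genes 14 were lower and 2 higher (median -0.213), with Mapt (tau) at -1.0. Eno2 (neuronal enolase), a glycolytic enzyme that is also in the glycolysis and hypoxia list, differed by -1.21, and by -1.98 without WT-p 1 and 3. The heavy neurofilament gene Nefh rose by 0.98.

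Other lists are given by their counts, to be read beside the 24.3% lower and 20.4% higher among all genes. Of 77 cytosolic ribosomal proteins 20 were lower and 2 higher, with a median of -0.091 that turned positive under 2 alternatives, and 12 were lower without WT-p replicate 2. The share of ribosomal proteins lower, 26%, was near that of all genes, while 2.6% were higher. Of 36 synaptic vesicle and secretory granule genes 15 were lower and 5 higher (median -0.122), and of 25 heat shock and cytosolic chaperone genes 10 were higher and 2 lower (median 0.089), with 6 higher without WT-p replicate 2. Lower members outnumbered higher ones among lipid droplet genes (12 and 6 of 32), lysosomal genes (13 and 6 of 43) and ion channels (11 and 4 of 33). Folate, methionine and serine metabolism counted 12 higher and 9 lower of 38, and p53 targets and apoptosis genes 8 and 10 of 28.

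A comparison in differentiation medium used other samples of the same lines. Differences of OT from untransfected cells in the 2 media correlated across the 16240 genes with Pearson's r of 0.49 and Spearman's rho of 0.43, where genes are not independent replicates. In differentiation medium 26.7% of genes were higher in OT-d and 25.2% lower. Of the 3310 genes higher in proliferation medium 1761 were also called higher in differentiation medium and 272 lower. Of the 3952 lower genes 1833 were again lower and 579 higher. The difference itself depended on the medium for 5703 genes (35.1%), 3371 (20.8%) toward higher and 2332 (14.4%) toward lower in differentiation medium.

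A first set of genes differed in the same direction in both media. Gpm6b differed by 3.90 and 4.18, Arhgap25 by 1.75 and 1.66, Pcolce by -3.13 and -2.82, Dlk1 by -4.62 and -5.85 and Capn6 by -2.38 and -1.98. For Gpm6b, Arhgap25, Dlk1 and Capn6 the test of the difference between media did not pass (adjusted p 0.272, 0.624, 0.0921 and 0.0725), which does not show that they were equal. For Pcolce the change of 0.31 did (adjusted p 0.00603). Against the same WT-p samples TO-p gave -0.38 for Gpm6b, -1.40 for Arhgap25, 0.53 for Pcolce, -5.08 for Dlk1 and -0.27 for Capn6. OT and TO therefore lay on the same side of WT-p for Dlk1 and apart for Gpm6b, Arhgap25 and Pcolce.

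A second set was lower in proliferation medium and differed little in differentiation medium. Bnip3 differed by -2.28 and -0.04, Ndrg1 by -2.64 and -0.33, and the glycogen phosphorylase gene Pygl by -2.20 (-2.90 without WT-p 1 and 3) and 0.22. The change between media passed for all 3 (adjusted p 0.000140, 0.000110 and 7.64e-06). WT-d and OT-d cells both carried these transcripts at high levels, with Ndrg1 at 13.51 ± 0.11 and 13.10 ± 0.41 (SD, n = 4 each) against 11.53 ± 0.80 in WT-p and 8.83 ± 0.06 in OT-p. Over the glycolysis and hypoxia list the median difference was -0.535 in proliferation and -0.118 in differentiation medium. Other members kept a difference in both media, among them Adm with -1.69 and -1.92, Slc2a1 with -1.31 and -1.11 and Egln3 with -1.29 and -0.96. For these 3 the change between media did not pass (adjusted p 0.705, 0.644 and 0.334).

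The last set reversed. Bambi differed by 1.86 and -0.81, Id2 by 1.62 and -0.65 and Id3 by 0.89 and -1.38, and each change passed (adjusted p 4.44e-08, 6.26e-07 and 7.68e-05). Rec8, a meiotic cohesin, differed by -1.28 and 1.11, and Cyb561 by -1.24 and 0.54. The cholesterol and fatty acid list had medians of -0.268 and 0.341, and the neurofilament and microtubule list -0.213 and 0.391. The integrated stress response list kept its side, with -0.353 and -0.490, as did MHC class I with -0.512 and -0.523.

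The greatest dependence on the medium included genes near background in proliferation medium. Agtr2, an angiotensin receptor, differed by -0.26 and 3.20, Galnt15, a relative of Galnt5, by -0.67 (-1.05 without WT-p replicate 1, -0.24 without WT-p replicate 2, -1.33 without WT-p 1 and 3) and -3.29, and Osgin1, a gene induced by oxidative stress, by -0.13 and -2.53. Fam170a differed by -0.88 and 1.48, and Ada, adenosine deaminase, by 0.45 and -1.84.

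**Figure D4:**
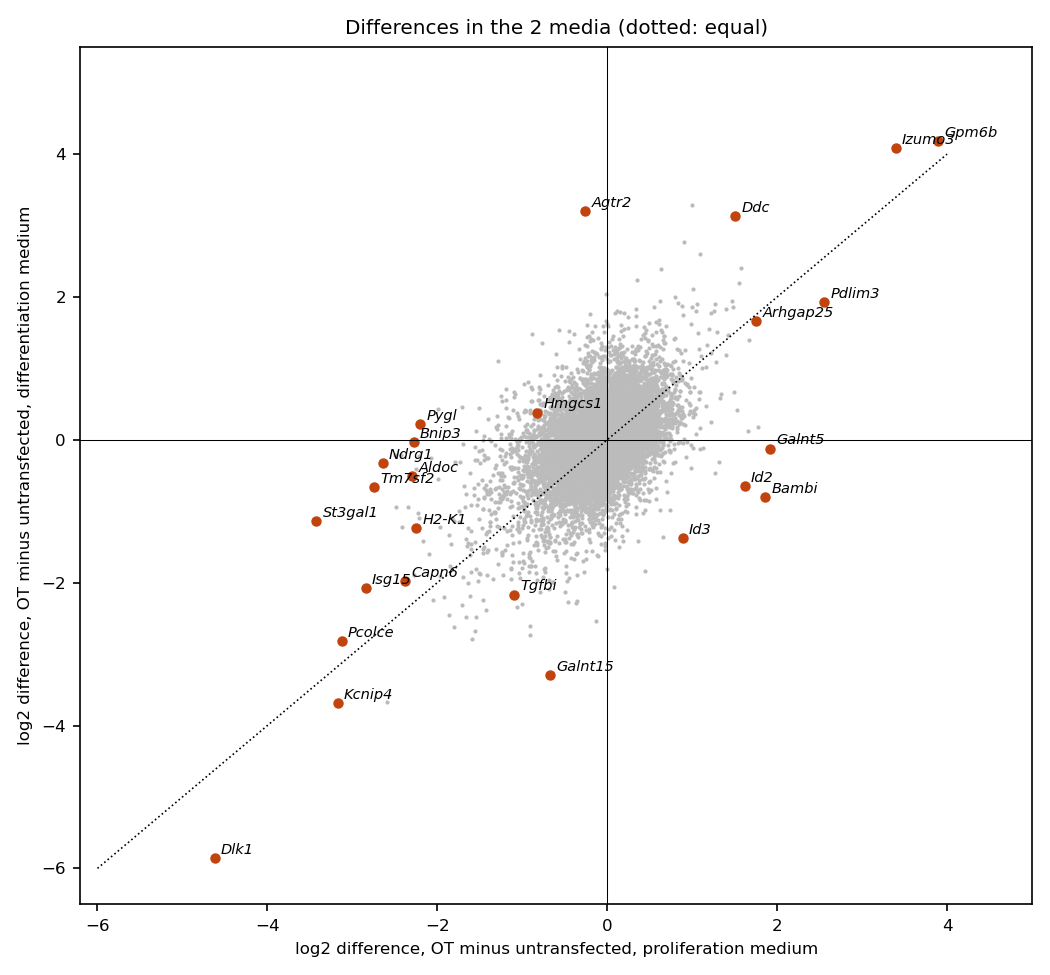
Log2 difference of OT minus untransfected cells in proliferation medium (horizontal) and in differentiation medium (vertical) for the 16240 genes tested, with named genes in colour and a dotted line where both are equal. Gpm6b and Dlk1 lie near the line, Bnip3 and Ndrg1 near 0 in differentiation medium, and Bambi, Id2 and Id3 on opposite sides in the 2 media.

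Differences were not spread evenly over chromosomes. On chromosome 13, 260 of 572 tested genes were lower (45.5%) and 40 higher (6.99%), against 24.3% and 20.4% of all genes, with a median of -0.170. The shift was small and broad. Sample medians over the chromosome were 0.019, 0.010, 0.007 and -0.024 in WT-p and -0.168, -0.159, -0.188 and -0.223 in OT-p, so the groups did not overlap and WT-p 1 and 3 were not intermediate. The median was -0.146, -0.213 and -0.200 on slides 1, 2 and 3, -0.166 without WT-p 1 and 3, and between -0.140 and -0.224 under the processing alternatives.

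The shift was also present in differentiation medium, where the chromosome 13 median was -0.171. TO-p cells differed from WT-p by 0.036 there. Every 20 Mb stretch of the chromosome had a negative median, from -0.093 to -0.261, and 57.6% of the lowest 1% of runs of 25 neighbouring genes lay on it. Nid1, Tgfbi and Mtrr, named above as lower, have their probes on chromosome 13, and so has Mtr, which was higher.

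Other chromosomes differed less. On chromosome 12, 34.5% of genes were lower, and on chromosome 7 30.3%. On chromosomes 3 and 5 and on X 30.7%, 29.7% and 28.7% were higher. The highest run of 25 genes was chr4:35380609-41577427 (mm8), from C9orf72 to Ubap1, with a median of 0.398 and 17 genes higher and 1 lower. It holds Nol6, a nucleolar protein of ribosome assembly (1.05), and Dnaja1, an HSP40 co-chaperone (0.75). The lowest run was chr17:34828363-35473070, from Nfkbil1 to Nrm, in the class I region, with a median of -0.511 and 16 genes lower and 1 higher. It holds H2-D1 and H2-Q2 (-1.39), whose probes may read each other's RNA, and Ier3, an early response gene (-1.64, and -2.29 without WT-p 1 and 3).

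**Figure D5:**
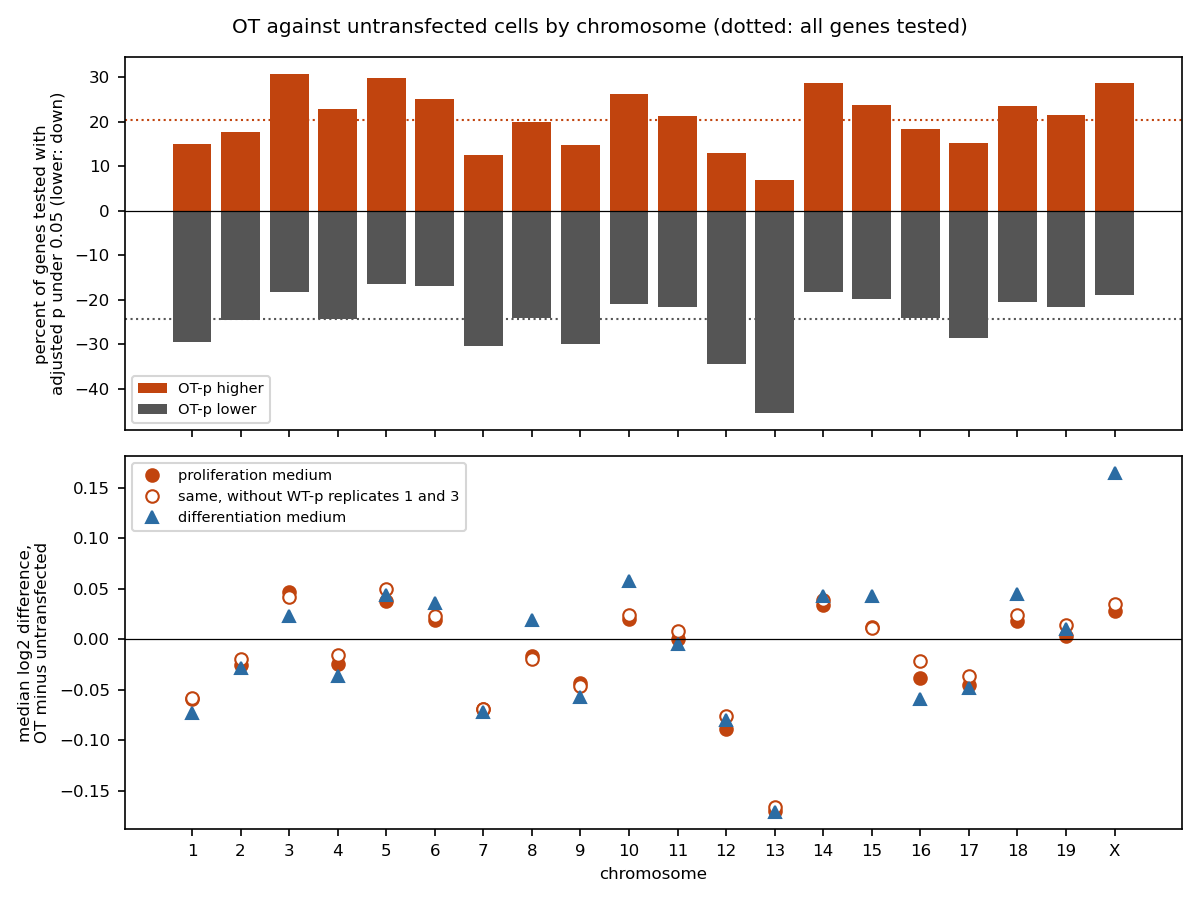
Above, the percent of tested genes on each chromosome that were higher (up) or lower (down) in OT-p, with dotted lines for all genes. Below, the median log2 difference of OT minus untransfected cells in proliferation medium, the same without WT-p replicates 1 and 3, and in differentiation medium; chromosome 13 stands lowest in all 3, at -0.170, -0.166 and -0.171.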

How the data were processed

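Raw intensity per spot and dye comes from the scanner files that the authors deposited (per the file headers, software Agilent Feature Extraction, version 10.5.1.1), and their series table holds linear intensity. Probe positions are on the mm8 build. Signals of each sample's own dye went through limma 3.58.1 under R 4.3.3. Spots marked as non-uniform, as population outliers or as having a non-uniform background in either dye were left out, and the last mark was added after normexp failed on 1 array. Then came normexp with an offset of 50, loess, Aquantile and log2, and 1639 control spots were left out. The probe with the highest mean over the 24 samples stood for a gene, and 16240 of 27597 genes were tested, being well above background in every sample of at least 1 of the 6 groups. Of the 41174 probes, 24375 were named by accession, 6301 by symbol and 2426 by synonym in RefSeq.

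The fit took all 24 samples on 12 arrays, with 6 group means, a dye term and the array as a block with an intraspot correlation of 0.464. The planned lmscFit refuses missing values, and lmFit with this block gives the same values for complete genes. Fitted differences allow for dye and array, so they need not equal those of the printed levels. Residual degrees of freedom were 17 and prior ones 5.30, and p-values are two-sided limma values adjusted by Benjamini-Hochberg over all genes tested. On simulated data 82% of genes changed by 0.5 on the log2 scale and 100% of those changed by 1 were recovered among 200 changed genes of 16240. The simulated noise followed the fitted model, with the same spread in every group and no split of WT-p. These shares therefore need not hold for the data. The number of arrays limits the precision, and no probe was checked by sequence.

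Genes named are the 15 with the greatest difference in each direction that were called, separate in all samples and above background in all 8 (7 for Samsn1, with 1 spot left out), up to 4 called members of a list, the 5 greatest bounds, the 5 greatest medium differences, the genes of the extreme chromosomal runs, and cobalamin and HuR genes read out whatever their result. A few that this rule selects are not reported here. The members and lists were chosen with earlier results of these data known. Alternatives covered the signals, normalization, dim genes, probes, dye, slide, replicate block and samples left out.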

Additional observations from a re-analysis of the deposited data

Results flagged for a closer look

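In 4 sets of 4 samples a single sample stood apart from the others. These were Flrt3 in OT-p replicate 3 (12.11, others 12.21 to 12.23), Ccng2 in OT-p replicate 4 (9.34, others 9.55 to 9.59), Mmadhc in OT-p replicate 1 (12.21, others 12.05 to 12.07) and H2-Q2 in OT-p replicate 4 (12.50, others 12.58 to 12.59). Chance gives such a gap in about 1 in 20 groups, and 102 genes were read in each group.

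For 63 of the 102 genes the difference of OT from untransfected cells changed with the medium (limma interaction, adjusted p under 0.05 over all genes tested), against 35.1% of all genes. Some of the 102 were named for their medium difference, so this count is no estimate for other genes. The values that follow are the log2 difference in differentiation medium less that in proliferation medium. Among genes higher in OT-p the change was -0.62 for Pdlim3, -2.04 for Galnt5, -2.67 for Bambi, -1.52 for Flrt3, -2.27 for Id2, -2.27 for Id3, -0.83 for Col6a4, -0.79 for Rpa2, -1.61 for Hnrnpdl, -0.35 for Sdhd, -0.35 for Mtr, -2.29 for Ada and -0.60 for Nol6. It was positive for Chst8 at 0.64, Ddc at 1.62, Sfpq at 1.77, Dbh at 0.78, Nefh at 0.64 and Izumo3 at 0.70.

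Among genes lower in OT-p most changes were upward. The change was 2.29 for St3gal1, 0.31 for Pcolce, 0.77 for Isg15, 2.08 for Tm7sf2, 2.31 for Ndrg1, 2.28 for Selenbp1, 2.21 for Selenbp2, 1.54 for Akr1b7, 1.19 for Cryba2, 1.40 for Slc22a18, 1.78 for Aldoc, 2.24 for Bnip3 and 1.76 for Nnmt. Ifi27 changed by 1.25, H2-K1 by 1.01, H2-D1 by 0.66, H2-Q2 by 0.65, Acss2 by 1.46, Hmgcs1 by 1.21, Agrn by 0.54, Ccng2 by 1.65, Anp32a by 0.39, Sirt2 by 0.38, Cyb561 by 1.78, Abcc1 by 0.40, Tcn2 by 0.49 and Lmbrd1 by 0.34. Pygl changed by 2.42, Rec8 by 2.39 and Fam170a by 2.36. Rec8, Fam170a, Cyb561 and Hmgcs1 were higher in OT-d than in WT-d (1.11, 1.48, 0.54 and 0.38).

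For other lower genes the gap to untransfected cells was wider in differentiation medium. These were Rsad2 (-1.82), H2-M3 (-0.46), Trib3 (-0.67), Cebpb (-0.60), Tgfbi (-1.07), Mtrr (-0.75), Ddit3 (-0.45), Kcnip4 (-0.52) and Galnt15 (-2.62). Genes with no call in proliferation medium changed by -0.70 (Cd320), 0.44 (Elavl1), 0.79 (Th), 3.46 (Agtr2) and -2.40 (Osgin1).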

How the results depend on the processing

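Counts over 2-fold and the split of directions depended most on the processing. Genes called higher numbered 2027 with loess alone, while genes more than 2-fold higher numbered 258 on the scanner's processed signals, 144 without WT-p replicates 1 and 3 and 103 without the 6 samples whose descriptions carry the letter b. Genes more than 2-fold lower numbered 634 on processed signals and 604 without WT-p 1 and 3. Loess alone left 987 genes whose difference was lower in differentiation medium. The causes were not tested. Leaving out each OT-p and WT-p replicate gave 2367 to 3532 genes higher, 3069 to 4049 lower, 45 to 95 over 2-fold higher (95 without WT-p replicate 1, 45 without replicate 4) and 217 to 442 over 2-fold lower. Between 70.1% and 98.5% of called genes kept call and direction, the lowest share in a fit of the 8 samples alone, and the mean of all probes called 8 genes in the opposite direction.

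With the title's replicate number as a replicate block 3262 genes were higher and 3934 lower. Numbers did not pair the samples: deviations of WT-p and OT-p samples of the same number correlated at -0.12, 0.30, -0.03 and 0.09. The alternative without background population outliers was chosen after seeing the data (3057 higher, 3906 lower). Among named genes, 4 values turned: Mtrr (0.0146 on slide 1), Elavl1 (0.2288 with the mean of probes) and Galnt15 (0.0828 on slide 2, which is array 8 for these samples, so the value is counted under both). In 23 other cases a call of a named gene was lost and in 5 gained. Medians of the gene lists that the text describes as leaning one way kept their sign under all alternatives, except cytosolic ribosomal proteins.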
